A study of Drosophila melanogaster with 16 samples.

Results

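The genes encoding the proteins of the cytosolic ribosome were followed in Drosophila melanogaster larvae that carried one of the mitochondrial genomes called Alstonville and Dahomey (their mitotypes) and were raised on one of 2 diets. Members were all rows of the deposited gene count table whose NCBI symbol starts with RpL or RpS and a digit, or with RpLP. This rule uses names alone and no measured value. It found 92 of 17207 genes, by symbol 54 of the large and 38 of the small subunit. The RNA-seq libraries were 16 in number, 4 for each of Dahomey larvae on 1:16 P:C food, Alstonville larvae on 1:16 P:C food, Dahomey larvae on 1:2 P:C food and Alstonville larvae on 1:2 P:C food, where P:C is the ratio of protein to carbohydrate. The 1:16 food is rich in carbohydrate and the 1:2 food in protein. The lines were made and backcrossed in the w1118 nuclear background and differ by their mtDNA, but the methods say that chromosome 4 also differed when they were built and that backcrossing lessened this, so effects of mtDNA and of remaining chromosome 4 differences cannot be told apart. The methods describe the larvae as female, wandering and in the third instar. The labels give larvae of the third instar and no age in hours, and their extraction text also speaks of sorted cells, a step that the methods do not describe. Each line stands for one mitochondrial genome. The methods describe replicates as biological, taken from distinct samples. Whether those of a combination came from separate food bottles is not stated, and p-values measure the spread between these libraries.

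The cytosolic ribosome translates nuclear-encoded mRNAs. Its large subunit joins amino acids and its small subunit reads the mRNA, and most of the proteins are present once in each ribosome. The genes for these proteins are among the most highly expressed in growing cells and their transcripts tend to move together. In Drosophila, loss of a single copy of many of these genes gives the Minute phenotype of slow development and thin bristles, and growth signals through TOR and Myc raise ribosome production in the larva. Most members are single-copy genes, while some families hold further copies, often used in the germ line.

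The libraries held 24869991 to 31896525 counts (median 27680129). Levels are given as CPM, a gene's counts per 1000000 counts of the library after the library size was scaled by its TMM factor, and are relative to the sampled mRNA. Marker genes set 4 libraries apart from the rest of their group. In Alstonville replicate 4 on 1:2 the summed level of 12 larval muscle genes was 36326 CPM, against 2977 to 9835 CPM in the other 3 Alstonville libraries on 1:2. In Dahomey replicate 2 on 1:16 the 7 salivary glue genes summed to 3481 CPM, against 4.79 to 6.65 CPM in the other 3. In Dahomey replicate 4 on 1:2 the 25 testis genes matched summed to 717.8 CPM, against 110.9 to 194.2 CPM in the other 3. In Alstonville replicate 2 on 1:16 the 6 fat body storage protein genes summed to 35834 CPM, against 5380.2 to 11733 CPM in the other 3. Glue genes, which mark salivary glands late in the third instar, were near 0 in 7 of 8 libraries on the 1:16 diet and at 9492 to 18311 CPM in the 8 libraries on the 1:2 diet. Although the larvae are described as female, lncRNA:roX1, a noncoding RNA of male dosage compensation, was at 113 to 684.9 CPM in 12 of 16 libraries and at 13.0 to 20.8 CPM in the other 4. Counts of members are given with these libraries, without the first 3 named and without all 4.

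The members took a larger share of the RNA on the carbohydrate-rich diet. Their summed counts made up 7.51%, 7.48%, 7.70% and 7.5% of all counts in Dahomey larvae and 8.29%, 7.67%, 7.99% and 8.25% in Alstonville larvae on 1:16, against 5.71%, 5.70%, 5.74% and 5.19% in Dahomey larvae and 5.40%, 5.40%, 5.91% and 5.40% in Alstonville larvae on the 1:2 diet. Every 1:16 library was above every 1:2 library. On the 1:16 diet the shares of Dahomey larvae (7.55% ± 0.104, SD, n = 4) and Alstonville larvae (8.05% ± 0.284) overlapped, because Alstonville replicate 2 lay below Dahomey replicate 3. On the 1:2 diet the shares of Dahomey larvae (5.59% ± 0.262) and Alstonville larvae (5.53% ± 0.258) also overlapped. These shares do not depend on the TMM factors. In whole-larva RNA, a change in the number of cells of a type and a change in RNA per cell cannot be told apart.

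**Figure D1:**
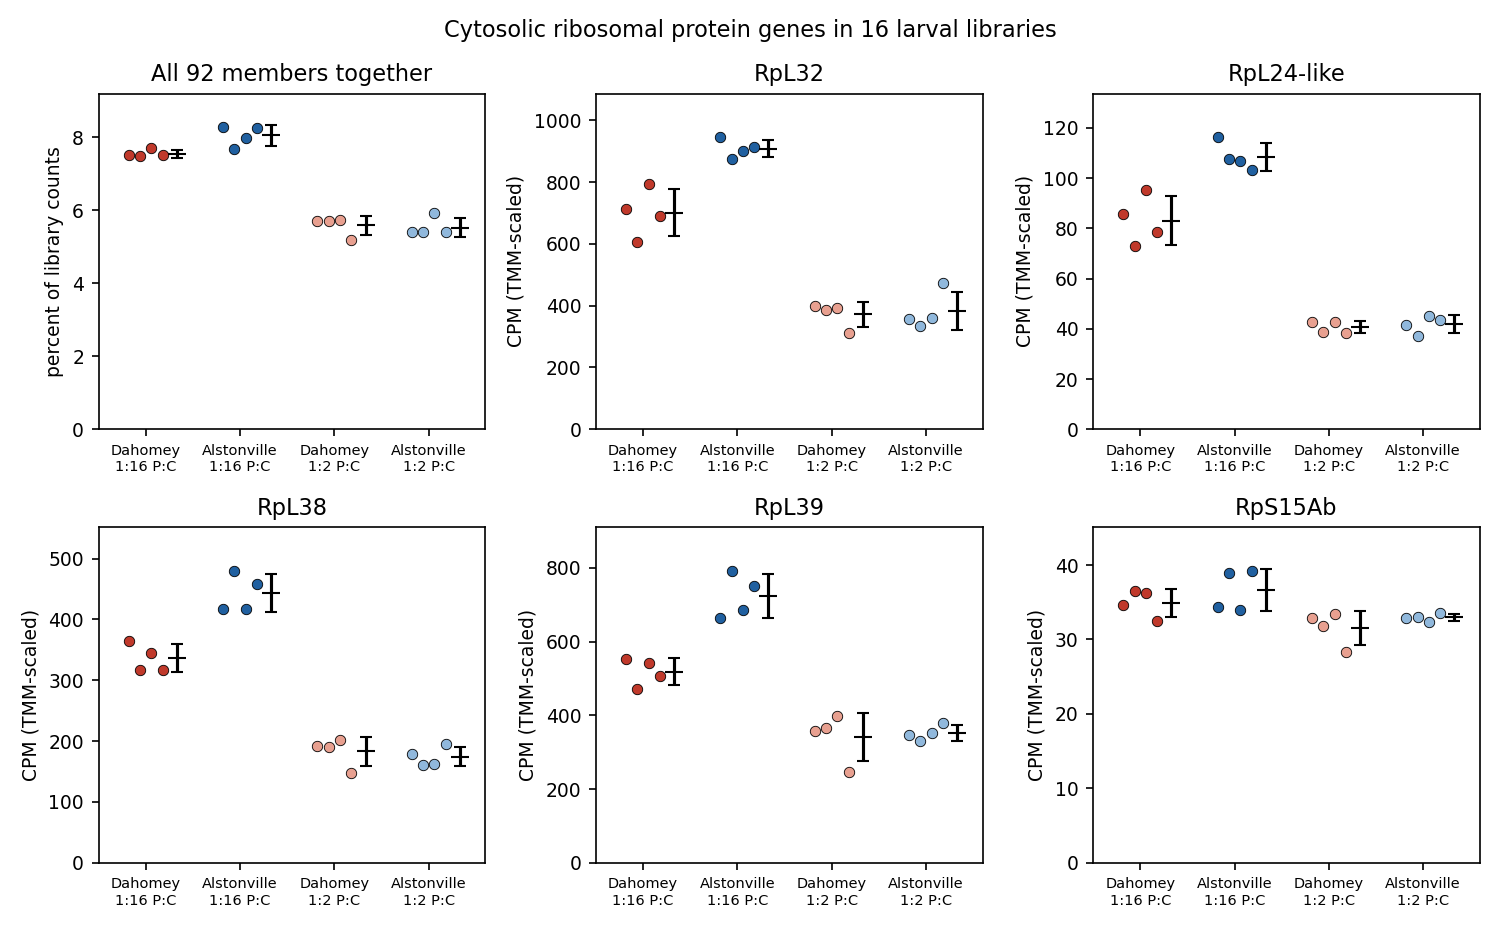
Percent of counts on the 92 members (top left) and TMM-scaled CPM of RpL32, RpL24-like, RpL38, RpL39 and RpS15Ab, 1 point per library, with each group's mean and SD (n = 4). The share was 7.48% to 8.29% in the 8 libraries on 1:16 and 5.19% to 5.91% in the 8 on 1:2, and RpS15Ab is the panel in which the 4 groups lie closest.

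Of the 92 members, 89 passed the filter on low counts (0.25 CPM or more in 4 or more libraries), and RpL7-like, RpS28-like and RpS28a did not. A further split by mean level, chosen after the values were seen, separates 83 members over 10 CPM from 6 tested members under it. Per kilobase of counted length, the 83 spanned 18.4 to 3526 CPM with a median of 896.2 CPM, and 73 of them lay between 300 and 1500 CPM. The highest were RpL41 at 3526 CPM per kb, RpS27A at 1940.3 CPM per kb and RpLP1 at 1773 CPM per kb. RpL41 encodes the smallest ribosomal protein, a short basic peptide of the large subunit, RpS27A is made as a fusion to ubiquitin, and RpLP1 is an acidic protein of the stalk that recruits translation factors. The counts of RpL41 may include reads of NaCP60E, a sodium channel gene that overlaps it, because the use of strand in counting is not stated. The lowest tested members were RpL10Aa at 1.39 CPM per kb, RpS10a at 1.48 CPM per kb and RpL37-2 at 3.13 CPM per kb, each a second copy beside an abundant gene. In the mean of each group, 69 of the 83 abundant members followed the order Alstonville 1:16, Dahomey 1:16, Alstonville 1:2, Dahomey 1:2, highest first, and in the other 14 the last 2 changed places. The 2 neighbours at the low end of this order passed the test for no member, and the 2 at the high end for 8 members.

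The comparison of 1:16 with 1:2 asks how the diet changed the transcripts within each mitotype. In Dahomey larvae 82 of the 89 tested members were higher on 1:16, none was lower and 7 did not pass, where 24.6% of all tested genes were higher (edgeR quasi-likelihood test, Benjamini-Hochberg adjusted p under 0.05). In Alstonville larvae 82 of 89 were higher, 1 was lower and 6 did not pass, where 30.6% of all genes were higher. The 1:16 libraries lay wholly above the 1:2 libraries in 82 members in Dahomey larvae, where 25.1% of all genes did so, and in 83 members in Alstonville larvae, where 29.1% did so. The median log2 fold change of the members was 0.63 in Dahomey larvae, beside -0.12 over all tested genes, and 0.89 in Alstonville larvae, beside -0.11 over all tested genes. These medians correspond to 1.55-fold and 1.85-fold higher levels under TMM scaling. With upper-quartile factors the medians were 0.68 in Dahomey and 0.81 in Alstonville larvae. The mean share of counts on members, which uses no factors, showed a smaller relative rise. It went from 5.59% to 7.55% in Dahomey and from 5.53% to 8.05% in Alstonville larvae. The large subunit counted 50 of 53 higher in each mitotype and the small subunit 32 of 36, so both subunits were raised on 1:16 by the same test. Without the first 3 of the libraries that stood apart, 86 members were higher in Dahomey larvae (29.1% of all genes), and 82 were higher (35% of all genes) and 1 lower in Alstonville larvae, and the counts of members were the same without all 4 (28.4% of all genes higher in Dahomey and 33.6% in Alstonville larvae). With limma-trend and 2 or 3 surrogate variables, which absorb variation that the groups do not describe, the members higher in Dahomey larvae were 60 with a median of 0.42 (13.8% of all genes higher) and 36 with a median of 0.28 (10.8%), and in Alstonville larvae 86 with a median of 0.60 (24.3%) and 82 with a median of 0.46 (21.5%).

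The largest increase in each mitotype among the called members that rose was in RpL24-like, whose yeast relative Rlp24 is an assembly factor that holds the place of the RPL24 protein on the immature large subunit. The gene is at 3R:11430740-11431582 (Release 6 plus ISO1 MT) and overlaps Dtd. RpL24-like had 85.6, 73.0, 95.3 and 78.5 CPM in Dahomey larvae and 116, 107, 107 and 103 CPM in Alstonville larvae on 1:16, against 42.8, 38.6, 42.9 and 38.5 CPM in Dahomey larvae and 41.5, 37, 45.3 and 43.3 CPM in Alstonville larvae on 1:2. All 8 libraries on 1:16 were higher than all 8 on 1:2, and the 2 mitotypes did not overlap on 1:16. The log2 fold change was 1.03 ± 0.0886 (SE) in Dahomey larvae (edgeR, adjusted p = 4.36e-06) and 1.37 ± 0.0892 in Alstonville larvae (adjusted p = 2.16e-07).

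RpL32, a large subunit protein better known in flies as rp49 and used widely as a reference in RT-qPCR, had the second largest increase in Dahomey and the third largest in Alstonville larvae, where RpL38 lay between. It lies at 3R:30045229-30046161 and no other annotated gene overlaps it. RpL32 had 713, 607, 794 and 692 CPM in Dahomey larvae and 945, 876, 902 and 912 CPM in Alstonville larvae on 1:16, against 398, 385, 393 and 312 CPM in Dahomey larvae and 359, 335, 361 and 474 CPM in Alstonville larvae on 1:2. The diets did not overlap in either mitotype, and the lowest 1:16 library stood above the highest 1:2 library. The log2 fold change was 0.92 ± 0.123 in Dahomey larvae (edgeR, adjusted p = 9.76e-05), a 1.89-fold higher level, and 1.25 ± 0.124 in Alstonville larvae (adjusted p = 3.69e-06), a 2.38-fold higher level.

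RpL38, a small protein of the large subunit, showed the same order. RpL38 had 364, 317, 345 and 317 CPM in Dahomey larvae and 417, 479.9, 417 and 459 CPM in Alstonville larvae on 1:16, against 192, 190.5, 202 and 148 CPM in Dahomey larvae and 179, 161, 163 and 195 CPM in Alstonville larvae on 1:2. The 1:16 libraries lay above the 1:2 libraries in both mitotypes. Its log2 fold change was 0.88 ± 0.105 in Dahomey larvae (edgeR, adjusted p = 4.58e-05) and 1.35 ± 0.106 in Alstonville larvae (adjusted p = 7.29e-07). RpS29, a zinc-binding protein of the small subunit head, rose by 0.87 in Dahomey and 1.1 in Alstonville larvae on the log2 scale. RpL37A, also a zinc-binding protein, rose by 0.83 in Dahomey and 1.13 in Alstonville larvae. RpS20, a protein of the small subunit head, rose by 0.81 in Dahomey and 1.13 in Alstonville larvae, and RpL21 by 0.79 in Dahomey and 1.09 in Alstonville larvae. RpL23A, RpL36 and RpL41 were among the 10 largest in Dahomey larvae at 0.77, 0.76 and 0.75, while RpL10 and RpL39 were among them in Alstonville larvae at 1.08 and 1.04. The standard errors of these log2 changes were between 0.117 and 0.158.

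The stalk of the large subunit is built of RpLP0 and the acidic proteins RpLP1 and RpLP2, which bind elongation factors. RpLP0 averaged 1463 ± 200.5 CPM in Dahomey and 1879 ± 99.5 CPM in Alstonville larvae on 1:16, against 877 ± 75 CPM in Dahomey and 919 ± 209 CPM in Alstonville larvae on 1:2 (SD, n = 4 each). Its log2 fold change between diets was 0.74 ± 0.148 in Dahomey and 1.03 ± 0.149 in Alstonville larvae, and those of RpLP1 (0.63 and 0.92) and RpLP2 (0.65 and 0.91) were close to it. The 2 members made as ubiquitin fusions rose as well, RpL40 by 0.56 in Dahomey and 0.83 in Alstonville larvae and RpS27A by 0.54 and 0.87. RpS6, the small subunit protein phosphorylated by S6 kinase downstream of TOR, lies on the X chromosome. RpS6 had 1251, 1129, 1444 and 1234 CPM in Dahomey larvae and 1579.7, 1542, 1468 and 1447 CPM in Alstonville larvae on 1:16, against 824, 829, 795 and 641 CPM in Dahomey larvae and 739, 703, 769 and 1006 CPM in Alstonville larvae on 1:2. Its 1:16 libraries lay above the 1:2 libraries in both mitotypes, with log2 fold changes of 0.71 ± 0.128 in Dahomey larvae (edgeR, adjusted p = 0.000649) and 0.91 ± 0.129 in Alstonville larvae (adjusted p = 5.20e-05). RpL13A, whose mammalian counterpart is another common reference gene, rose by 0.54 in Dahomey and 0.83 in Alstonville larvae.

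**Figure D2:**
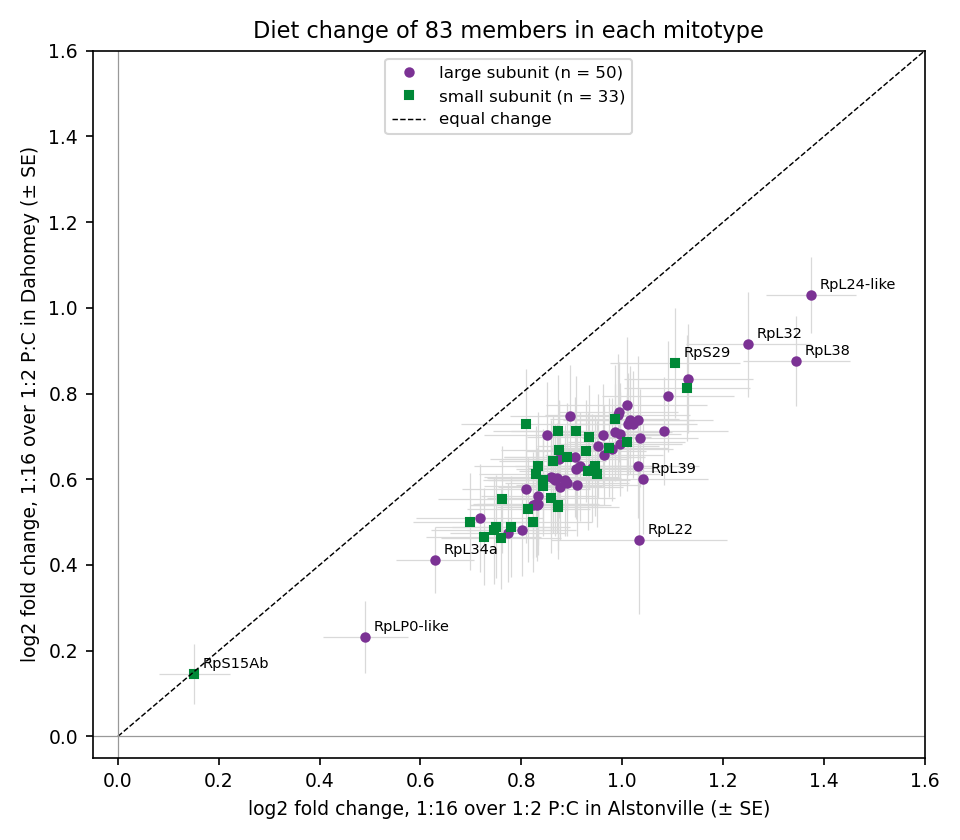
Log2 fold change of 1:16 over 1:2 in Dahomey larvae (vertical axis) against that in Alstonville larvae (horizontal axis) for the 83 members over 10 CPM, with SE bars, circles for the large and squares for the small subunit, and a dashed line of equal change. All 83 points lie below the line, with RpL24-like furthest out at 1.03 in Dahomey and 1.37 in Alstonville larvae and RpS15Ab nearest the origin at 0.15 and 0.15.

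A few abundant members moved little. RpS15Ab, a retained second copy of the small subunit gene RpS15A, was the exception among the 83 that did not pass in either mitotype. RpS15Ab had 34.6, 36.4, 36.3 and 32.4 CPM in Dahomey larvae and 34.4, 38.9, 33.9 and 39.2 CPM in Alstonville larvae on 1:16, against 32.8, 31.8, 33.4 and 28.3 CPM in Dahomey larvae and 32.8, 33, 32.4 and 33.6 CPM in Alstonville larvae on 1:2. In Dahomey larvae the diets overlapped, in Alstonville larvae the lowest 1:16 library lay just above the highest 1:2 library, and the mitotypes overlapped on both diets. Its log2 fold change was 0.15 ± 0.0705 in Dahomey larvae (edgeR, adjusted p = 0.103) and 0.15 ± 0.0705 in Alstonville larvae (adjusted p = 0.0765), while its abundant partner RpS15Aa rose by 0.58 and 0.84. RpLP0-like, whose yeast relative Mrt4 is an assembly factor that precedes the stalk protein on the immature subunit, rose by only 0.23 in Dahomey larvae (edgeR, adjusted p = 0.0333, called in 10 of 16 fits that left out a library) and 0.49 in Alstonville larvae (adjusted p = 0.000222). RpL34a rose by 0.41 in Dahomey and 0.63 in Alstonville larvae and its more abundant copy RpL34b by 0.73 in Dahomey and 1.02 in Alstonville larvae.

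Markers of other tissues moved with the diet. The 12 larval muscle genes summed to 33772 to 66864 CPM in Dahomey and 69794 to 79983 CPM in Alstonville larvae on 1:16, against 4507 to 15446 CPM in Dahomey and 2977 to 36326 CPM in Alstonville larvae on 1:2. The 14 midgut protease genes summed to 14753 to 28434 CPM in Dahomey and 21494 to 25665 CPM in Alstonville larvae on 1:16, against 4645 to 7016 CPM and 3267 to 13335 CPM on 1:2. The 6 fat body storage protein genes went the other way, at 31897 to 48682 CPM in Dahomey and 5380.2 to 35834 CPM in Alstonville larvae on 1:16, against 55495 to 88102 CPM and 47630.3 to 145233 CPM on 1:2, as did the 7 glue genes given above. No gene of these 4 lists was at 0 in any library. The part of tissue makeup or larval stage in the rise of the ribosomal protein transcripts was not tested.

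To see which members lay furthest from the others, changes were also computed relative to the family, with library sizes and TMM factors taken from the members alone and p-values adjusted over all tested genes. This scaling was chosen after the data were seen. Because it centres the members at 0, it shifts most other genes, and 61.2% of all tested genes passed in Dahomey and 75% in Alstonville larvae (edgeR, adjusted p under 0.05). The adjustment over all genes is therefore slight, and which members passed is given as a description. In Dahomey larvae 11 members passed, 7 above and 4 below the family, and in Alstonville larvae 15 did, 8 above and 7 below. All 11 of Dahomey larvae were among the 15 of Alstonville larvae (100% of the 11 and 73.3% of the 15). These diet comparisons share no library, but both came from the same fit with a shared estimate of spread. The overlap is therefore not independent agreement. RpL24-like stood furthest above the family, by 0.39 ± 0.0915 in Dahomey and 0.46 ± 0.0915 in Alstonville larvae on the log2 scale (SE). RpL32 stood above it by 0.29 ± 0.0631 and 0.35 ± 0.0631, and RpL38 by 0.26 ± 0.0907 and 0.43 ± 0.0908. RpS29, RpL37A, RpS20 and RpL21 made up the other 4 above the family in both mitotypes, and RpL10 joined them in Alstonville larvae.

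Below the family in both mitotypes were RpS15Ab, RpLP0-like, RpL34a and RpS2, a core protein of the small subunit. RpS15Ab changed by -0.47 ± 0.107 relative to the family in Dahomey and by -0.77 ± 0.108 in Alstonville larvae, and RpLP0-like by -0.39 ± 0.139 in Dahomey and -0.43 ± 0.139 in Alstonville larvae. The values were -0.22 ± 0.0757 in Dahomey and -0.28 ± 0.0757 in Alstonville larvae for RpL34a, and -0.16 ± 0.0659 in Dahomey and -0.18 ± 0.0659 in Alstonville larvae for RpS2. Among those that fell below it in Alstonville larvae alone were RpL28 and the sparse RpL10Aa, and the difference between mitotypes was not past the threshold for any member, where 0.0549% of all genes passed. With each library left out in turn, the count lay between 6 and 16 in Dahomey larvae and between 12 and 19 in Alstonville larvae, and RpL24-like, RpL32, RpL37A, RpS20 and RpS15Ab were called in 16 of 16 fits in both. Others rested on single libraries, RpS2 being called in 3 of 16 fits in Dahomey and 12 in Alstonville larvae, RpL21 in 6 and 16, RpL38, RpL34a and RpLP0-like in 12 and 16 each and RpS29 in 16 and 12. Between the mitotypes, no member passed relative to the family on either diet, where 13.2% of all genes passed on 1:16 and 0.00784% on 1:2.

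**Figure D3:**
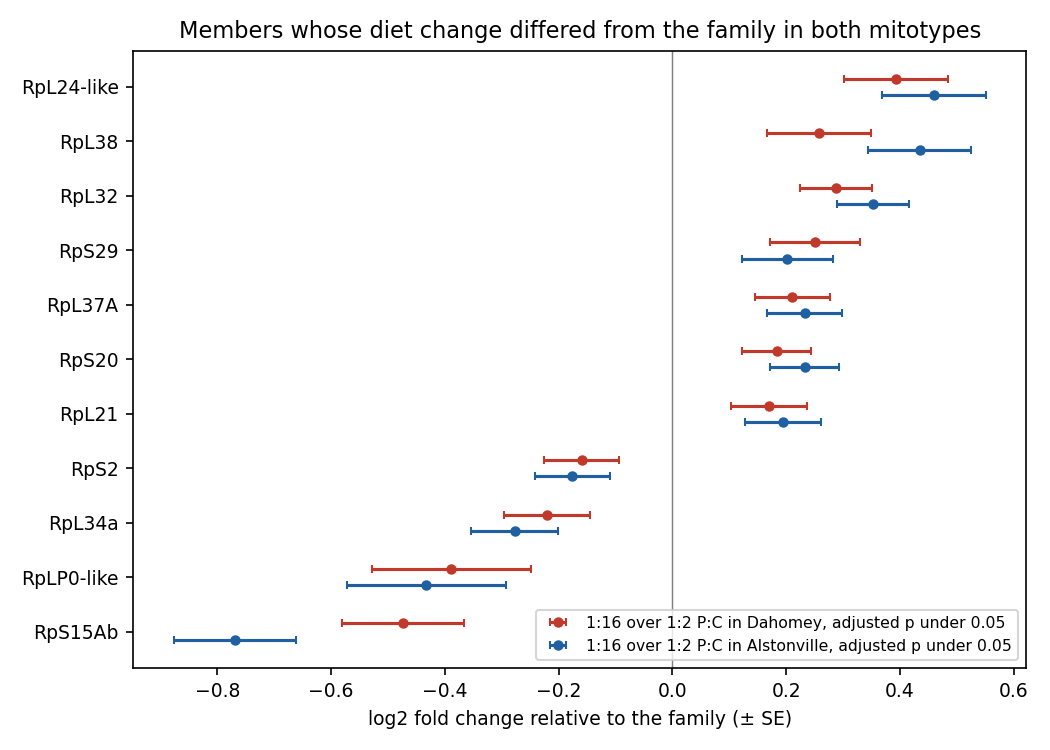
Log2 fold change of 1:16 over 1:2 relative to the family, with SE, for the 11 members past the threshold in both mitotypes, drawn in red for Dahomey larvae and in blue for Alstonville larvae. RpL24-like lies furthest to the right and RpS15Ab furthest to the left, in the same direction in both mitotypes.

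On the 1:16 diet, the fitted levels of ribosomal protein transcripts were slightly below those of Alstonville larvae in Dahomey larvae, a difference that 8 members passed the test for. All 83 members over 10 CPM had a negative log2 fold change and the 6 tested members under it a positive one, where 6625 of 12750 tested genes were negative. Members share the scaling of each library, so they are not separate observations of a direction. In 75 of the 89 tested members every Dahomey library was below every Alstonville library, where 24.2% of all tested genes were that way. The 8 members past the threshold were all lower in Dahomey larvae, where 9.3% of all tested genes were lower (edgeR, adjusted p under 0.05), so the share of members called was close to the background. The median over the 89 members was -0.32, a 0.802-fold level, beside -0.03 over all tested genes, with a median SE of 0.123 for a single member. The level of this comparison moved with the scaling. Over all genes TMM gave 766 higher and 1186 lower, RLE factors 1002 higher and 919 lower, and upper-quartile factors 1371 higher and 592 lower with a median over all genes of 0.11, and the members called were 8 with TMM, 3 with RLE and 0 with upper-quartile factors. The members' median minus that of all genes was -0.29 under each of the 3. Such factors shift all genes of a library nearly alike, so this difference could hardly move and does not test the scaling. The members' median minus that of all genes was -0.20 with at least 10 counts in every library, -0.18, -0.12 and -0.14 with limma-trend and 1, 2 and 3 surrogate variables, -0.19 without the first 3 of the libraries that stood apart and -0.21 without all 4. None of the 12 larval muscle genes passed on this diet (edgeR and DESeq2, with 0 at an unadjusted p under 0.05, and 0 with limma-trend except for 3 lower with 3 surrogate variables), with summed levels of 33772 to 66864 CPM in Dahomey and 69794 to 79983 CPM in Alstonville larvae, and 2 of the 6 fat body storage protein genes were higher in Dahomey larvae, the list summing to 31897, a median of 38809 and 48682 CPM (lowest, median and highest) in Dahomey and 5380.2, a median of 8652 and 35834 CPM in Alstonville larvae. Their part in the lower members was not tested.

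The 8 members were RpL39, RpLP2, RpL12, RpL10, RpL38, RpL24-like and RpL30, named for the large subunit, and RpS3A, named for the small. Among them RpL24-like has an assembly factor as its yeast relative, so its name does not make it a protein of the finished subunit. RpL39 lines the tunnel through which the new chain leaves the ribosome, and RpL12 sits at the base of the stalk that carries RpLP2. The RpL39 and RpL12 genes overlap, so their counts may not be independent. RpL39 had 553, 472, 541 and 506 CPM in Dahomey larvae and 665, 792, 686 and 751 CPM in Alstonville larvae on 1:16. The mitotypes did not overlap, and the log2 fold change was -0.48 ± 0.128 (edgeR, adjusted p = 0.0226). RpL24-like had 85.6, 73.0, 95.3 and 78.5 CPM in Dahomey larvae and 116, 107, 107 and 103 CPM in Alstonville larvae on 1:16. The mitotypes did not overlap here either, with a log2 fold change of -0.38 ± 0.0877 (edgeR, adjusted p = 0.0113). RpL38 differed by -0.40 ± 0.105 (edgeR, adjusted p = 0.0214), with 364, 317, 345 and 317 CPM in Dahomey larvae and 417, 479.9, 417 and 459 CPM in Alstonville larvae, which did not overlap.

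RpL10, a late-joining protein of the large subunit near the site of peptide transfer, had a log2 fold change of -0.40 ± 0.125 (edgeR, adjusted p = 0.0435). RpLP2 differed by -0.45 ± 0.139 (adjusted p = 0.0447), RpL12 by -0.41 ± 0.120 (adjusted p = 0.0363), RpL30 by -0.36 ± 0.114 (adjusted p = 0.046) and RpS3A, the member on chromosome 4, by -0.35 ± 0.105 (adjusted p = 0.0389). RpL32 differed by -0.37 ± 0.122 with an adjusted p of 0.0537, and RpS6 by -0.25 ± 0.128 with an adjusted p of 0.183, so neither passed. The count of 8 depended on single libraries. It was 63 without Alstonville replicate 4 on 1:2, which is in neither group compared and enters through the shared fit, where 15.2% of all genes were lower. It was 21 without Dahomey replicate 3 on 1:16 (9% of all genes) and 19 without Dahomey replicate 4 on 1:2 (10.8%). It was 1, RpL24-like, without any of 5 other libraries, among them Alstonville replicate 2 on 1:16 (7.01%). Without the first 3 of the libraries that stood apart it was 61, where 14.9% of all genes were lower, and without all 4 it was 43, where 12.3% were. RpL24-like was called in all 16 fits that left out a library and in 13 of 15 other settings.

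**Figure D4:**
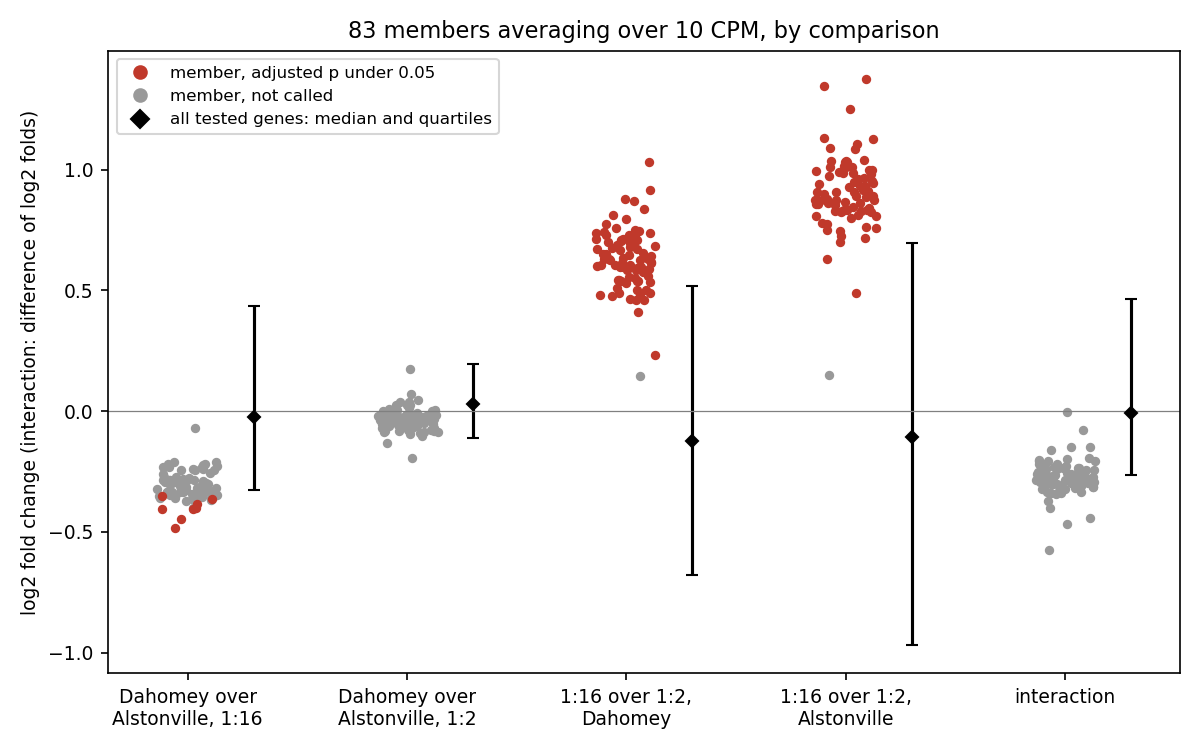
Log2 fold changes of the 83 members over 10 CPM in the 4 comparisons between groups and in the interaction, 1 point per member (red where called), with the median and quartiles of all tested genes as diamonds and bars. Over all 89 tested members the medians were 0.63 and 0.89 for the diet in Dahomey and Alstonville larvae, -0.32 between mitotypes on 1:16 and -0.04 on 1:2.

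On the 1:2 diet no member passed the threshold between Dahomey and Alstonville larvae (edgeR, with 0 at an unadjusted p under 0.05, and 0 calls with DESeq2 and with limma without surrogate variables), where 0.0941% of all tested genes did. The median over the members was -0.04, beside 0.03 over all tested genes, and 20 of 89 had a positive change. RpL24-like, with 42.8, 38.6, 42.9 and 38.5 CPM in Dahomey and 41.5, 37, 45.3 and 43.3 CPM in Alstonville larvae, differed by -0.04 ± 0.0877 and its groups overlapped. RpL32 differed by -0.04 ± 0.122. The spread on this diet came largely from 2 libraries. Among the 83 abundant members, Alstonville replicate 4 had the highest CPM of its group in 81 and Dahomey replicate 4 the lowest of its group in 81, while members made up 5.40% of the counts of Alstonville replicate 4, against 5.40%, 5.40% and 5.91% in the other 3. Its TMM factor was 0.849, against 1.16 to 1.19 in the other 3 Alstonville libraries on 1:2. The members' median was 0.14 without the first 3 of the libraries that stood apart and also without all 4.

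The mitotype by diet interaction asks whether the diet changed the members by unequal amounts in the 2 mitotypes. The increase on 1:16 was larger in Alstonville larvae in 83 of 83 abundant members, with a median difference of 0.28 on the log2 scale and a range of 0.0056 to 0.58. These members were split off after the values were seen and share the scaling of each library. They are not separate observations of the difference. None of the 89 members passed the test of that difference (edgeR, 7 at an unadjusted p under 0.05, with 1 call by DESeq2 and 0 by limma without surrogate variables), where 0.784% of all tested genes did. The median interaction term was -0.28 beside -0.01 over all tested genes. With RLE factors it was -0.23 beside 0.03, and with upper-quartile factors -0.15 beside 0.12, so its size moved with the scaling. The mean share of counts on members, which uses no factors, was 8.05% on 1:16 and 5.53% on 1:2 in Alstonville larvae. In Dahomey larvae it was 7.55% and 5.59%. RpL22, a large subunit protein that carries a long N-terminal tail in flies, had the largest gap, -0.58 ± 0.244 (adjusted p = 0.277 with edgeR). For RpL38 the term was -0.47 ± 0.148 (adjusted p = 0.141). This count also turned on single libraries. It was 1 without Alstonville replicate 4 on 1:2, where 3.11% of all genes passed, and 2 without Dahomey replicate 4 on 1:2, where 1.93% did. Without the first 3 of the libraries that stood apart it was 52, all with a smaller diet change in Dahomey larvae, where 9.24% of all genes passed and 5.49% in that direction. Without all 4 it was 30, also all in that direction, where 6.86% of all genes passed and 3.69% in that direction.

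Families with several genes were mostly served by a single copy. Per kilobase, RpS10b stood 302 times above RpS10a, RpL37-1 218 times above RpL37-2, RpS5a 151 times above RpS5b, RpS19a 133 times above RpS19b and RpL22 71.3 times above RpL22-like. RpL10Ab was 714 times as high as RpL10Aa. RpLP0 was 52.6 times as high as RpLP0-like, whose yeast relative is an assembly factor, so RpLP0 and RpLP0-like may not be copies with the same role. The closest pair was RpS14a and RpS14b, neighbouring copies on the X chromosome, with RpS14a 1.47 times higher, and reads of near-identical copies may have been divided between them in counting. RpL24 was 5.01 times as high as RpL24-like, RpL34b was 3.33 times as high as RpL34a and RpS15Aa was 19.0 times as high as RpS15Ab.

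The mean balance within some families differed between diets. RpS15Ab made up 4.62% of its family per kilobase in Dahomey and 3.98% in Alstonville larvae on 1:16, against 6.16% and 6.27% on 1:2. RpL34a made up 22.3% in Dahomey and 20.7% in Alstonville larvae on 1:16, against 26.3% and 25.6% on 1:2. RpL24-like, in contrast, was 18% of the RpL24 family in Dahomey and 18.4% in Alstonville larvae on 1:16, against 14% and 13.7% on 1:2. Its yeast relative is an assembly factor, so RpL24-like and RpL24 may not be copies with the same role. These shares carry no test of their own.

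The 6 tested members under 10 CPM were all second copies known from the germ line or testis of the fly. None of RpL22-like, RpS19b, RpS5b, RpL37-2 and RpS10a passed in any comparison with edgeR over all 16 libraries or with DESeq2, but other settings called them. Without the first 3 of the libraries that stood apart all 5 were higher on 1:16 in Dahomey larvae (edgeR, adjusted p of 0.000817 to 0.0355). Those 3 include Dahomey replicate 4 on 1:2, which was set apart by testis genes and was the highest of its group for each of the 5. Leaving it out therefore lowers the 1:2 side of these genes. Between mitotypes on 1:16, limma-trend with 1, 2 or 3 surrogate variables called RpL22-like and RpL37-2 lower in Dahomey larvae, with log2 changes of -1.53 to -1.49 and -1.42 to -1.39, while edgeR gave positive changes of 0.57 and 0.71 that did not pass (adjusted p = 0.765 for both). RpL22-like, a testis-enriched partner of RpL22, had 8.65, 5.68, 8.55 and 10.5 CPM in Dahomey and 5.77, 3.03, 2.48 and 11.2 CPM in Alstonville larvae on 1:16, against 0.312, 2.37, 0.190 and 17.2 CPM in Dahomey and 0.235, 6.80, 5.84 and 0.161 CPM in Alstonville larvae on 1:2. Dahomey replicate 4 on 1:2 was highest, and replicates 1 and 3 of that group and replicates 1 and 4 of Alstonville on 1:2 were lowest. The same 4 libraries were those with lncRNA:roX1 under 50 CPM, a limit set after the values were seen. In them RpS19b was at 0.161 to 0.735 CPM, against 0.974 to 8.42 CPM in the other 12, and RpS5b was at 1.23 to 1.57 CPM, against 2.04 to 10.5 CPM. RpS10a was at 0 to 0.190 CPM in these 4 and at 0.374 to 2.58 CPM in the other 12, and RpL37-2 was at 0 in all 4 and at 0.394 to 4.08 CPM in the other 12. RpS28-like and RpS28a, which did not pass the filter, reached 1.05 and 0.415 CPM, and RpL7-like had 1 count in all 16 libraries together.

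RpL10Aa, a germ line copy beside RpL10Ab, was the member with the most uneven counts. RpL10Aa had 0.924, 0.413, 0.545 and 1.30 CPM in Dahomey larvae and 0, 0, 0 and 0 CPM in Alstonville larvae on 1:16, against 0, 0.968, 0 and 7.94 CPM in Dahomey larvae and 0, 3.14, 2.18 and 0 CPM in Alstonville larvae on 1:2. It had 0 counts in 8 libraries, among them all 4 of Alstonville on 1:16. A floor of 3 counts per library corresponds to 0.130 CPM there, so with a mean of 1.33 CPM in Alstonville larvae on 1:2 its level was at least 10.2-fold lower in Alstonville larvae on 1:16. It was called lower on 1:16 in Alstonville larvae (edgeR, adjusted p = 0.042), but in only 5 of 16 fits that left out a library, and the 1:2 group was itself split between 2 libraries at 0 and 2 above 2 CPM. Its fitted fold change is no bound. With the gene set at its bound, the members' medians in this comparison and between mitotypes on 1:16 stayed at 0.89 and -0.32. They could not move, because the gene stayed on the same side of each median. The testis tubulin betaTub85D was at 7.68 to 24.5 CPM in Dahomey larvae and at 0.0885 to 1.43 CPM in Alstonville larvae on 1:16. The part of male or testis RNA in the levels of these 6 members was not tested.

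**Figure D5:**
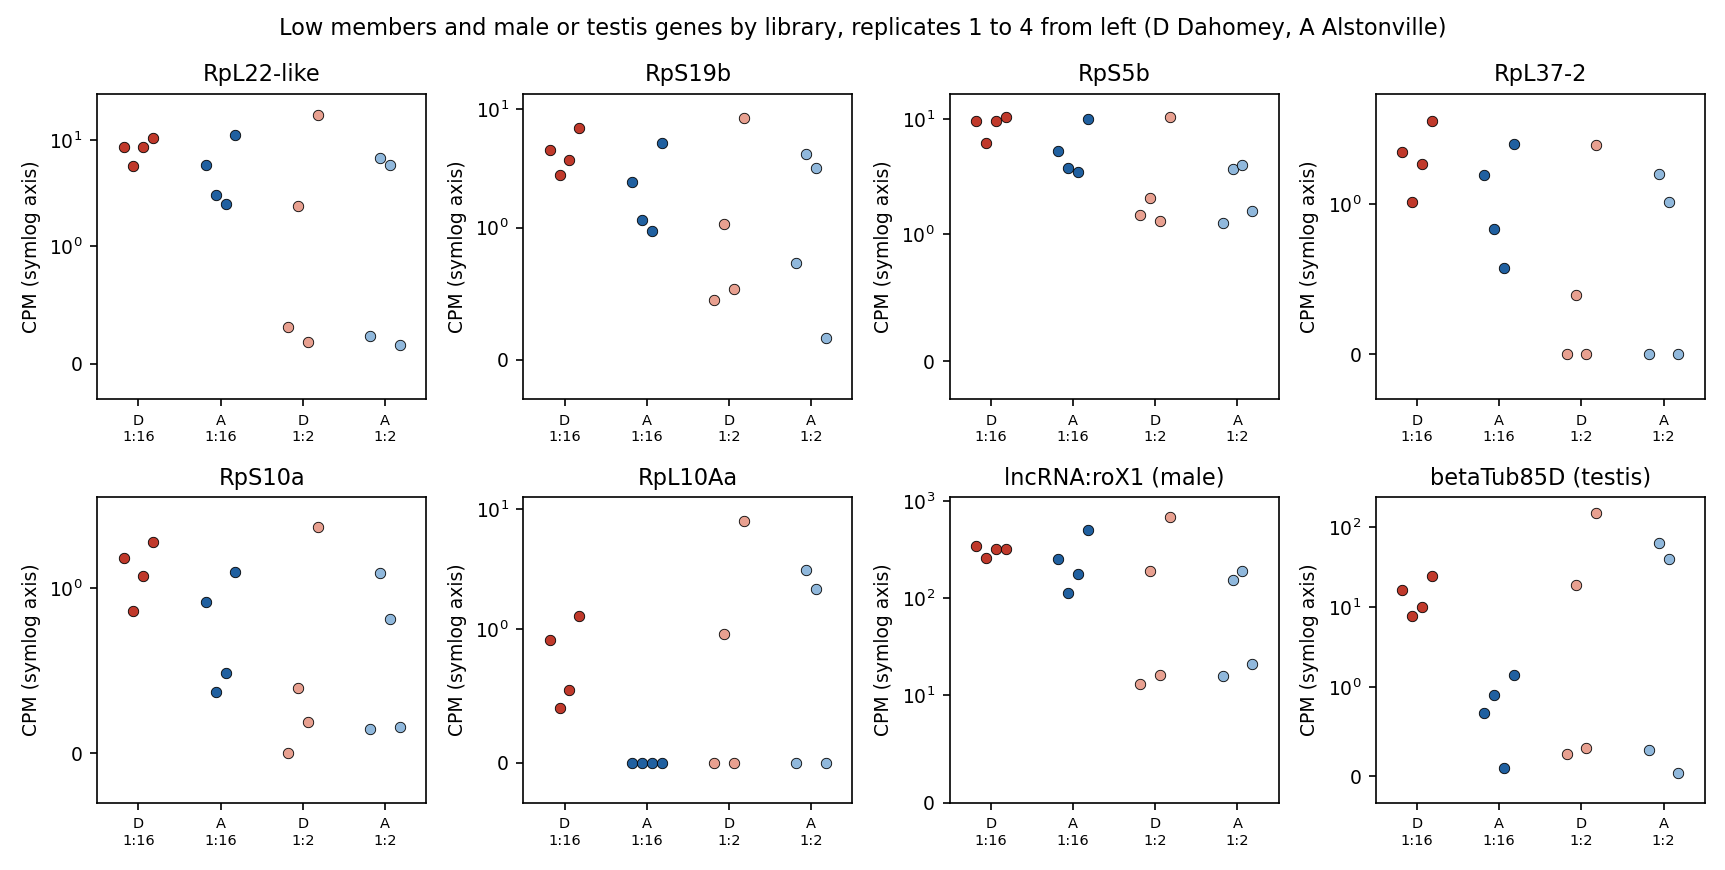
CPM of the 6 tested members under 10 CPM, of the male RNA lncRNA:roX1 and of the testis gene betaTub85D, 1 point per library on symlog axes, with replicates 1 to 4 from left within each group (D Dahomey, A Alstonville). Dahomey replicate 4 on 1:2 stands high in every panel, and replicates 1 and 3 of that group and 1 and 4 of Alstonville on 1:2 are low in every panel.

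Medians were close across positions and lengths, which the rule did not use. The members lie on chromosomes 3R (23 members), 2R (21), 2L (19), X (14), 3L (14) and 4 (1). The median diet change of the 14 abundant members on the X chromosome was 0.65 in Dahomey and 0.90 in Alstonville larvae, against 0.62 and 0.89 for the 69 on the autosomes. Between mitotypes on 1:16 the medians were -0.30 on the X chromosome and -0.33 on the autosomes. The 50 members under 1 kb had a median diet change of 0.64 in Dahomey and 0.90 in Alstonville larvae, against 0.62 and 0.87 for the 33 of 1 kb or more. Another gene overlapped 48 of the 92 members, in most cases a small nucleolar RNA (snoRNA) within an intron.

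Lists of genes outside the naming rule that serve the same machine differed in how many members passed. The background for each count is the share of all tested genes that passed, 24.6% higher and 24.4% lower on 1:16 in Dahomey larvae, 30.6% higher and 29.3% lower in Alstonville larvae, and 6.01% higher and 9.3% lower in Dahomey than in Alstonville larvae on 1:16. The ribosomal proteins sta (the small subunit protein SA) and Rack1 both rose on 1:16, sta by 0.58 ± 0.125 in Dahomey larvae (edgeR, adjusted p = 0.00192) and 0.78 ± 0.126 in Alstonville larvae (adjusted p = 0.00014). Rack1 rose by 0.44 ± 0.130 in Dahomey larvae (edgeR, adjusted p = 0.0131) and 0.70 ± 0.131 in Alstonville larvae (adjusted p = 0.000424). The 72 tested mitochondrial ribosomal protein genes were higher on 1:16 in 72 cases in each mitotype, with medians of 0.76 in Dahomey and 1.20 in Alstonville larvae, and 39 were lower in Dahomey than in Alstonville larvae on 1:16, with a median of -0.44. Of 31 nucleolar and assembly factors, 12 (38.7%) were higher and 0 lower in Dahomey larvae, and 13 (41.9%) were higher and 5 (16.1%) lower in Alstonville larvae. The leading genes were Non1, a GTPase of large subunit assembly (1.08 ± 0.173 in Dahomey and 1.42 ± 0.174 in Alstonville larvae), Nmd3, the export adaptor of the large subunit (0.65 ± 0.0884 and 1.04 ± 0.0889), and nclb (0.55 ± 0.105 and 0.96 ± 0.106). On 1:16, 3 of the 31 (9.68%, beside 9.3% of all genes) were lower in Dahomey than in Alstonville larvae and 0 higher, a share close to the background. Of the 31, 18 had a positive change, and the median of the list was 0.05. The 3 lower genes were RIOK2, Nmd3 and Ns2, with log2 fold changes of -0.36 ± 0.0880, -0.28 ± 0.0880 and -0.22 ± 0.0659 (edgeR, adjusted p = 0.015, 0.0462 and 0.0376). Calls between mitotypes on 1:16 in all these lists used TMM factors, and the level of that comparison moved with the scaling.

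Of 10 genes for RNA polymerase I and rDNA transcription, 3 (30%) were higher on 1:16 in Dahomey larvae, and 5 (50%) were higher and 1 lower in Alstonville larvae, beside 24.6% and 30.6% of all genes higher. Among them Max, the partner of Myc, rose by 0.25 in Dahomey and 0.51 in Alstonville larvae. On 1:16, 1 of the 10 (10%, beside 9.3% of all genes) was lower in Dahomey than in Alstonville larvae, a share close to the background. This was Myc itself, with a log2 fold change of -0.35 ± 0.105 (edgeR, adjusted p = 0.0372). Of 31 translation initiation factors, 7 (22.6%) were higher and 4 (12.9%) lower on 1:16 in Dahomey larvae, both below the background, while 19 (61.3%) were higher and 1 lower in Alstonville larvae. Of these factors 11 (35.5%, beside 9.3% of all genes) were lower in Dahomey than in Alstonville larvae on 1:16, where eIF3l differed by -0.42 ± 0.0854, eIF3m by -0.42 ± 0.103 and eIF2Bgamma by -0.39 ± 0.0808. Of 9 elongation and release factors, 3 were higher and 3 lower in Dahomey larvae (33.3% each) and 5 (55.6%) were higher and 2 (22.2%) lower in Alstonville larvae. The GTP exchange subunit eEF1beta rose by 0.58 in Dahomey and 0.86 in Alstonville larvae and eEF1gamma by 0.66 and 0.87, while eEF1alpha2 fell, with log2 fold changes of -0.79 and -1.22. On 1:16, 1 of the 9 was lower in Dahomey than in Alstonville larvae and 1 higher (11.1% each, beside 9.3% and 6.01% of all genes). The lower was eEF1beta at -0.77 ± 0.149 (edgeR, adjusted p = 0.005) and the higher eEF1alpha2 at 0.68 ± 0.217 (adjusted p = 0.0478).

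Among genes that control ribosomal protein mRNAs, those of TOR signalling were mixed and the promoter factors were all lower on 1:16. Of 18 genes of TOR signalling, 3 (16.7%) were higher and 5 (27.8%) lower on 1:16 in Dahomey larvae and 7 (38.9%) were higher and 3 (16.7%) lower in Alstonville larvae, counts near or below the background but for the 7. Sesn, an inhibitor of TOR complex 1, was lower on 1:16, with log2 fold changes of -1.33 ± 0.238 in Dahomey and -1.0 ± 0.236 in Alstonville larvae. On 1:16, 5 of the 18 (27.8%, beside 9.3% of all genes) were lower in Dahomey than in Alstonville larvae. Among them were InR, the insulin receptor, with a log2 fold change of -1.06 ± 0.222, Thor, the translation inhibitor 4E-BP, with -0.83 ± 0.167, and REPTOR, a transcription factor held back by TOR, with -0.60 ± 0.130. All 5 factors listed for ribosomal protein gene promoters were lower on 1:16 in both mitotypes, among them Trf2, the TBP relative of TCT promoters (-0.93 ± 0.133 in Dahomey and -1.11 ± 0.133 in Alstonville larvae), and Dref (-0.42 ± 0.115 and -0.74 ± 0.116). Of 6 snoRNA host genes, 1 was higher in Dahomey larvae and 4 in Alstonville larvae, led by Uhg2 (0.75 ± 0.151 and 0.76 ± 0.151). No gene of these lists passed between the mitotypes on the 1:2 diet with edgeR or DESeq2.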

How the data were processed

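Poly(A) RNA of 16 larval samples was sequenced as 100 bp read pairs on an Illumina HiSeq. Per the methods and labels, the authors aligned reads to the Release 6 plus ISO1 MT genome with Subread and counted them per gene with featureCounts, versions not given in the sources used here. Use of strand and treatment of reads that match several genes are not stated. The deposited values are raw counts for 17207 genes, 24869991 to 31896525 per library, and no other normalization was applied to them. Of the gene identifiers, 17063 matched a symbol in the NCBI table of the same build and 144 did not.

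From these counts, genes reaching 0.25 CPM in 4 or more libraries were fitted with TMM factors and edgeR's quasi-likelihood test (edgeR 4.0.16, R 4.3.3, limma 3.58.1), 1 coefficient per group over all 16 libraries, with Benjamini-Hochberg adjustment over all tested genes and calls at an adjusted p under 0.05. SE is the absolute log2 fold change divided by the square root of F. On simulated counts for Dahomey over Alstonville on 1:16, with 200 of 12588 genes changed by 2 on the log2 scale, edgeR recovered 63.5% with 4 other calls. Replicates of a group differed by more than sampling noise in all 24 pairs (lowest chi-square per gene 12.2).

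Members were named by these rules: up to 10 called members with the largest change in each comparison, members of paralogue families, the 3 highest and 3 lowest per kb, those failing the filter, a set of textbook members, sta and Rack1, and up to 3 called genes of each list of related genes. Members and lists were chosen with earlier results of these data known. Alternatives were RLE and upper-quartile factors, factors without the members, other filters, DESeq2 1.42.0, limma-trend with 0 to 3 surrogate variables, a replicate block, only the 8 libraries compared and leaving out each library. Leaving out 3 or 4 libraries together and scaling to the family were added after the data were seen. No sequences are shown, and an item withheld from the text is not reported here by name.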

Additional observations from a re-analysis of the deposited data

Results flagged for a closer look

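Of 180 groups of 4 libraries checked, in which the gap between an extreme library and the nearest other was set against the range of the group, 26 held a library far from the rest. Chance alone gives about 1 in 20 for a single group. Members move together across libraries, so the 180 groups are not separate trials and the 26 cannot be set against that rate. Alstonville replicate 4 on 1:2 was far above the other 3 for RpL10 (1027 CPM), RpL12 (733.1 CPM), RpL21 (743.9 CPM), RpL24 (556.1 CPM), RpL30 (391.3 CPM), RpL34a (84.53 CPM), RpL36 (549.4 CPM), RpS27A (1069 CPM) and RpS28b (642.1 CPM). Dahomey replicate 4 on 1:2 was far below its group for RpL21 (466.3 CPM), RpL32 (312.3 CPM), RpL37A (258.4 CPM), RpL40 (469.3 CPM), RpLP1 (814.4 CPM) and RpS14a (267.1 CPM). The same library was far above its group for the sparse members RpL10Aa (7.94 CPM), RpL22-like (17.19 CPM), RpL37-2 (2.742 CPM), RpS10a (2.583 CPM), RpS19b (8.419 CPM) and RpS5b (10.52 CPM). In Alstonville larvae on 1:16, replicate 3 was far below the others for RpLP1 (1853 CPM) and replicate 1 for RpS20 (844.1 CPM). For the share of counts on all members, the library far from its group was the highest of Dahomey on 1:16 (7.703%), the lowest of Dahomey on 1:2 (5.194%) and the highest of Alstonville on 1:2 (5.914%).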

How the results depend on the processing

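The direction of the members' median held in every setting tried for the diet in both mitotypes and between mitotypes on 1:16. The count of members called between Dahomey and Alstonville larvae on 1:16, 8 as reported, was 0 at an adjusted p under 0.01, 0 with upper-quartile factors, 3 with RLE factors, 4 without a filter, 3 with at least 10 counts in every library, 29 with DESeq2 and 17 with only the 8 libraries compared. With limma-trend and 0, 1, 2 or 3 surrogate variables it was 16, 3, 5 and 30. It lay between 1 and 63 with each library left out in turn and was 61 without the first 3 of the libraries that stood apart and 43 without all 4. The interaction, with 0 calls as reported, had 1 call with DESeq2, 1 with limma-trend and 2 surrogate variables, 3 with 3 surrogate variables, 0 to 2 with each library left out 52 without the 3 libraries and 30 without all 4. Their exclusion also turned the median between mitotypes on 1:2 to 0.1428 without the 3 and to 0.143 without the 4. With limma-trend the median diet change in Dahomey larvae was 0.4205 with 2 and 0.2845 with 3 surrogate variables, where 36 members were called, and in Alstonville larvae it was 0.5965 and 0.462. RpL22 in Dahomey larvae reversed, to -0.0001157 with 2 and -0.1121 with 3 surrogate variables. The cause was not tested. The share of counts rose to 8.247% in Dahomey and 8.859% in Alstonville larvae on 1:16, and to 6.042% in Dahomey and 5.918% in Alstonville larvae on 1:2, when only nuclear genes were counted, since the total was then smaller. Of the calls on named members, 36 of 38 for the diet in Alstonville larvae, 17 of 37 for the diet in Dahomey larvae and 0 of 8 between mitotypes on 1:16 held in every setting and with every library left out. The replicate block gave 3 calls between mitotypes on 1:16 and moved no other count of members called by over 1.5 times, while the members at an unadjusted p under 0.05 in the interaction were 3 in place of 7 and the calls over all genes between mitotypes on 1:2 were 2 in place of 12. Whether libraries with the same replicate number share a culture or day is not stated. The correlation of their deviations ran from -0.825 to 0.767 with a median of 0.0863, and was above 0.1 in 12 of 24 pairs. This range does not settle that question.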
